A study of Homo sapiens with 12 samples.

Results

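Transcription factors that set gut and epithelial identity were compared between the human colon cancer cell lines SW480 and COLO320DM. The 8 genes are CDX1, HNF4A, GATA6, SOX9, KLF5, ELF3, EHF and FOXA1, found by matching their gene identifiers in a table of 60623 genes, and all 8 were among the 23684 genes with enough reads to be tested. The series holds 12 poly-A RNA-seq libraries, 3 in each of 4 groups. COLO320DM and SW480 cells received either the empty plasmid pCMV6-Entry or pCMV6-HKDC1, which carries the hexokinase domain containing 1 gene. Both plasmids were given by lipofection at 10 μg for 24 h, so every group was transfected and no untransfected cells enter these comparisons. Each line is a single established culture, with no patient tissue and no normal colon beside it. The labels do not say whether replicates were separate cultures, and p-values measure only the spread between these libraries.

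In the gut, lineage factors work as layers. FOXA and GATA proteins open chromatin in endoderm, CDX and HNF4 proteins then activate intestinal genes such as those of the brush border, and SOX9 and KLF5 are most active in dividing crypt cells. ELF3 and EHF, a pair of epithelial members of the ETS family, are expressed widely in simple epithelia and help maintain epithelial gene expression.

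Library totals lay between 33790733 and 45451279 counts. HKDC1 itself, the plasmid's gene, was at 0 to 0.0238 CPM (reads scaled to library size by the trimmed mean of M-values) in COLO320DM with empty vector and at 6580 to 9630 with the HKDC1 plasmid, and at 34 to 38.4 against 12200 to 14300 in SW480, so all 12 libraries held it as their plasmid labels say. For the marker counts that follow, 37.3% of all tested genes were called higher and 34.3% lower in SW480 with empty vector. Of 8 colon epithelium markers, 7 were tested and 6 were called higher in SW480 with empty vector. Their summed level was 218 to 273 CPM in COLO320DM and 6580 to 9460 CPM in SW480. EPCAM, the epithelial adhesion molecule, lay at 1.36 to 2.17 CPM against 474 to 572 CPM, and KRT19, a keratin of simple epithelium, averaged 0.0786 ± 0.0602 against 428 ± 214 CPM (SD, n = 3 each). These are the largest differences of the list. CDH17, an intestinal cadherin, averaged 12.9 ± 0.852 against 31.4 ± 7.63 CPM, and KRT20, a keratin of mature colonocytes, did not pass the test, at 0.870 ± 0.0970 against 1.16 ± 0.104 CPM (edgeR adjusted p = 0.169). COLO320DM, labelled colon cancer, thus held less of 6 of these transcripts than SW480. Of 10 mesenchymal markers, 7 were tested, 4 were called lower and 1 higher in SW480. Their summed level stood at 648 to 899 CPM in COLO320DM and at 62.3 to 74.8 CPM in SW480. Most of each sum was VIM alone, at 595 to 819 CPM in COLO320DM and 38.4 to 57.2 CPM in SW480. The leukocyte gene PTPRC was at 36.6 ± 1.51 CPM in COLO320DM and 0.0220 ± 0.0381 CPM in SW480. Of 6 leukocyte markers, 5 were tested, with 2 called in each direction, near the shares of all genes. Their summed levels were 41.9 to 45 against 7.60 to 13.1 CPM. Of 8 neuroendocrine markers, 6 were tested, 3 were called higher and 1 lower in SW480, and of 4 endothelial markers 1 was tested and called higher, with summed levels of at most 1.17 CPM. The part of other cell types in the line difference was not tested. In bulk RNA, fewer cells of a type and less RNA per cell cannot be told apart.

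With empty vector, all 8 factors were higher in SW480 than in COLO320DM, and no library of one line overlapped with the other for any of them. HNF4A, ELF3 and EHF had at most 13 reads per group in COLO320DM, against 6556 to 10192 per group in SW480. CDX1 and GATA6 had no read in any COLO320DM library. KLF5 and SOX9 were present in both lines and 28.1-fold and 20.5-fold higher in SW480. FOXA1 differed least, by 2.07-fold. In edgeR's quasi-likelihood test 8 of 8 passed an adjusted p of 0.05, where 37.3% of all tested genes were called higher in SW480, 34.3% lower and 71.6% in either direction. Past 4-fold, 7 of 8 were called higher, against 15.3% of all genes called higher and 10.8% called lower by the same rule. The groups failed to overlap, with SW480 higher, for 38.0% of tested genes. The median log2 difference over the 8 was 5.79 with groups at 0 placed at their bound, against 0.04 over all tested genes. These counts describe the 8 genes and carry no test: CDX1, HNF4A, GATA6, ELF3 and EHF passed the filter on low counts only through SW480 and so had to differ.

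**Figure D1:**
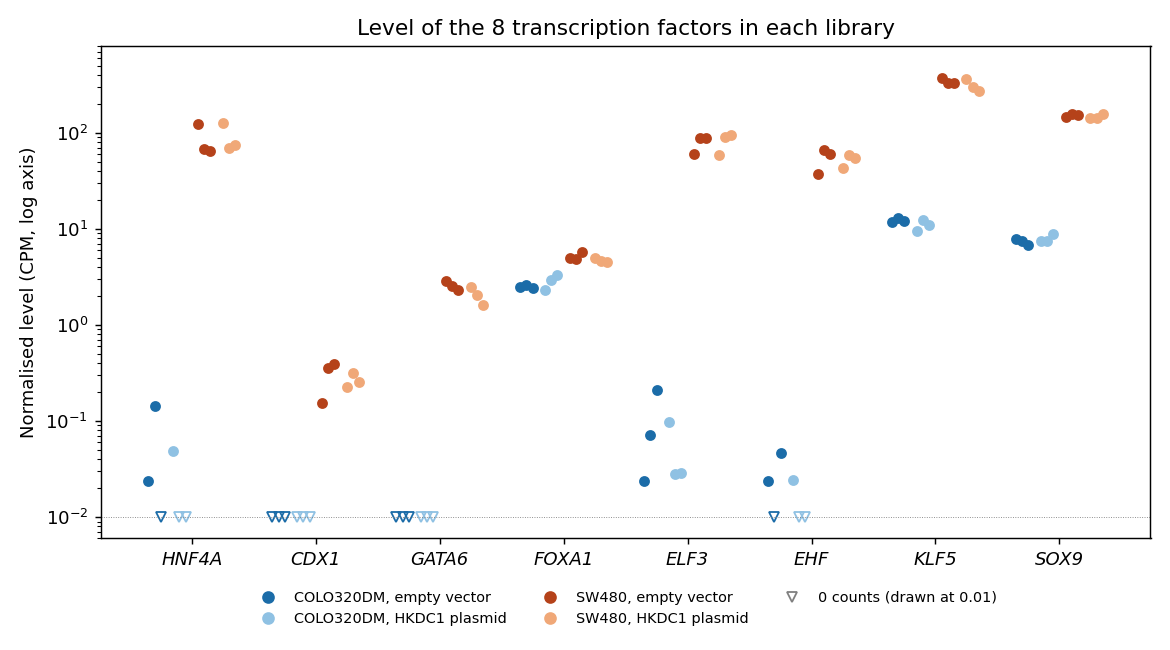
Normalised level in CPM on a log axis (vertical) of each of the 8 transcription factors (horizontal), with 1 point per library and colours for the 4 groups; open triangles mark libraries with 0 counts, drawn at 0.01 CPM. CDX1 and GATA6 are at 0 in all 6 COLO320DM libraries, HNF4A, ELF3 and EHF lie below 0.21 CPM there, and FOXA1 shows the smallest gap between the lines.

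HNF4A encodes a nuclear receptor that activates enterocyte and liver genes. The gene lies on the plus strand of GRCh38 chromosome 20, from 44355700 to 44434596, with 13 merged exons. COLO320DM with empty vector had 0.0236, 0.143 and 0 CPM, and with the HKDC1 plasmid 0.0488, 0 and 0 CPM. SW480 with empty vector had 124, 67.2 and 64.7 CPM, and with the HKDC1 plasmid 126, 69.3 and 73.9 CPM. The COLO320DM values come from 9 reads in 6 libraries, while the SW480 libraries held 2467 to 4779 each. The count ratio with empty vector was 1540, with a 95% interval from 747 to 3830 that covers counting error only. Of the 7 COLO320DM reads behind it, 6 were in replicate 2. The fitted log2 difference was 10.52 (SE 0.55, adjusted p = 1.52e-09 by edgeR) with empty vector and 12.05 (SE 0.63, adjusted p = 1.57e-09 by edgeR) with the HKDC1 plasmid. Those fitted values rest on 7 and 2 reads in COLO320DM, and the difference between them was not called (log2 1.53, SE 1.90, edgeR adjusted p = 1). Without COLO320DM replicate 2 the empty-vector value was 12.48, and without any other single library it lay between 9.95 and 10.68. Both reads with the plasmid were in COLO320DM replicate 1, so without it that group was at 0. The antisense gene HNF4A-AS1 had 0 or 1 read in every library and shares no exon base with HNF4A.

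RefSeq gives HNF4A more than 1 start site, and counts per gene do not tell which was used. Both RefSeq promoter windows (GRCh38.p14, 250 bases before to 50 after the start, plus strand) are shown because HNF4A is among the factors with the widest line difference. The windows are chr20:44355449-44355748 and chr20:44400989-44401288. Both strands were searched for the core motif of each factor's family. The endoderm zinc-finger family was searched as AGATAA and the epithelial erythroblast-transformation family as AGGAAG, both in capitals where they match. The remaining motifs were CAAAGTCCA for the nuclear receptor, TGTTTAC for the forkhead family, TTTATG for the caudal family, AACAAT for the high-mobility-group family, CCACACCC for the Krüppel-like family, and TATAAA for the core promoter box.
HNF4A upstream start: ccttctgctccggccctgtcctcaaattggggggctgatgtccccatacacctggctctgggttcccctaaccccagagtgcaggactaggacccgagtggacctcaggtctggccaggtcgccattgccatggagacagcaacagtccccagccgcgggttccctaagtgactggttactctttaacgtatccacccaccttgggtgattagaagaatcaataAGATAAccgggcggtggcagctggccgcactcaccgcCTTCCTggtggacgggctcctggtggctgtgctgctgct
HNF4A downstream start: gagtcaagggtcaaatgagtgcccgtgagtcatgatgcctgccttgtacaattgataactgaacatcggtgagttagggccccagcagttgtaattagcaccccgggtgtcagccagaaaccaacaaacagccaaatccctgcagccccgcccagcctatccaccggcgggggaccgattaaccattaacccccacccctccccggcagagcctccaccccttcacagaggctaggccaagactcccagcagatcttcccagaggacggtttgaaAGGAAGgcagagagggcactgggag
The upstream window held AGATAA at -26 from the start site and AGGAAG on the opposite strand at 12, and the downstream window held AGGAAG at 26. AGATAA occurs in 10.3% and AGGAAG in 33.6% of all 35116 RefSeq promoter windows of this length. A match is a run of letters and no evidence of binding.

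CDX1 encodes a caudal-type homeobox factor of the intestinal epithelium. It lies on the plus strand of chromosome 5, from 150166778 to 150184558, with 3 merged exons. All 6 COLO320DM libraries had 0 reads. SW480 with empty vector had 6, 13 and 18 reads (0.156, 0.354 and 0.396 CPM), and with the HKDC1 plasmid 8, 13 and 9 reads (0.227, 0.318 and 0.258 CPM). CDX1 was therefore detected in every SW480 library but at a low level. Against a floor of 3 reads over the COLO320DM group, SW480 was at least 13-fold higher with empty vector and at least 10-fold higher with the plasmid. The edgeR adjusted p was 0.00024 and 0.000461, respectively.

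GATA6 encodes an endoderm zinc-finger factor and lies on the plus strand of chromosome 18, from 22169392 to 22202528, with 7 merged exons. All 6 COLO320DM libraries again had 0 reads. SW480 had 2.88, 2.53 and 2.33 CPM with empty vector and 2.47, 2.03 and 1.60 CPM with the plasmid. Every SW480 library thus held GATA6 transcript, at 56 to 111 reads. The lower bound was 109-fold with empty vector (edgeR adjusted p = 2.8e-07) and 75.5-fold with the plasmid (edgeR adjusted p = 5.77e-07). On the opposite strand, GATA6-AS1 shares 274 exon bases with GATA6 and had 1 to 6 reads in SW480, and ENSG00000266283 shares 321 exon bases and had 23 to 44 reads there. Both were at 0 in COLO320DM. The sources used here do not say that counting used strand, so reads from the shared bases cannot be told apart.

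FOXA1, a forkhead pioneer factor, lies on the minus strand of chromosome 14, from 37589552 to 37596059, with 4 merged exons. COLO320DM had 2.50, 2.62 and 2.41 CPM with empty vector and 2.32, 2.97 and 3.33 CPM with the plasmid. SW480 had 4.93, 4.87 and 5.76 CPM with empty vector and 4.92, 4.57 and 4.46 CPM with the plasmid. The lines did not overlap, but the gap between the highest COLO320DM and the lowest SW480 library was small. The log2 difference was 1.05 (SE 0.16, adjusted p = 5.81e-05 by edgeR) with empty vector and 0.70 (SE 0.16, adjusted p = 0.00162 by edgeR) with the plasmid. The change between these values did not pass the test of the difference itself (log2 -0.35, SE 0.23, edgeR adjusted p = 1). TTC6, on the opposite strand, shares 16 exon bases with FOXA1 and had at most 8 reads in any library.

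ELF3 lies on the plus strand of chromosome 1, from 202007945 to 202017183, with 6 merged exons. COLO320DM had 0.0236, 0.0715 and 0.208 CPM with empty vector and 0.0975, 0.0280 and 0.0289 CPM with the plasmid. SW480 had 60.6, 88.2 and 87.2 CPM with empty vector and 58.4, 89.7 and 94.6 CPM with the plasmid. No COLO320DM library passed 9 reads, while SW480 libraries had 2055 to 3970. The count ratio was 776 with empty vector (95% interval 454 to 1460), with a fitted log2 difference of 9.55 (SE 0.38, adjusted p = 9.84e-11 by edgeR). Of the 13 COLO320DM reads, 9 were in replicate 3, and without that library the log2 difference was 10.60; without any other single library it lay between 9.09 and 9.72. With the plasmid the ratio was 1510 (95% interval 693 to 4110), with a fitted log2 difference of 10.47 (SE 0.41, adjusted p = 1.03e-10 by edgeR), or 11.32 without COLO320DM replicate 1, which held 4 of the 6 reads.

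The antisense neighbour ELF3-AS1 did not share the near absence of ELF3 from COLO320DM. ELF3-AS1 had 636 to 819 reads in the COLO320DM libraries and 1045 to 1195 in SW480, and its log2 difference was 0.64 (SE 0.09, adjusted p = 2.48e-05 by edgeR) with empty vector. Its annotated 5′ end on the minus strand, at 202010463, lies 124 bases before the RefSeq start of ELF3. ELF3-AS1 also shares 664 exon bases with ELF3 and 636 with the gene RNPEP, both on the other strand, and RNPEP had 1610 to 2125 reads in COLO320DM, so part of the ELF3-AS1 reads cannot be assigned with certainty. On the same strand as ELF3, ENSG00000249007 shares 664 exon bases with it and had 0 to 6 reads in COLO320DM and 855 to 1597 in SW480. The RefSeq window at the ELF3 start (GRCh38.p14, chr1:202010337-202010636, plus strand) is printed because it holds that start and the 5′ end of ELF3-AS1. The ELF3 exons of the count table begin before this window, at 202007945. Capitals mark its only match, TATAAA.
ELF3: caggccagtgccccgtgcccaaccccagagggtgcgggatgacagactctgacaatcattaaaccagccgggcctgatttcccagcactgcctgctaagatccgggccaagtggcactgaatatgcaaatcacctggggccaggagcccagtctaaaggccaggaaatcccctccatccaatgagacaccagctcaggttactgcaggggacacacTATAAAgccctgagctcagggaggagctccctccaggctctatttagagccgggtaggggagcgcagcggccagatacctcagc
The match starts at -34 from the ELF3 start site. TATAAA occurs on either strand in 11.5% of all windows of this length.

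EHF, the closest relative of ELF3 among the 8, lies on the plus strand of chromosome 11, from 34621093 to 34661057, with 16 merged exons. COLO320DM had 0.0236, 0 and 0.0463 CPM with empty vector and 0.0244, 0 and 0 CPM with the plasmid. SW480 had 37.5, 65.5 and 59.5 CPM with empty vector and 42.5, 59.3 and 54.1 CPM with the plasmid. With 4 reads over 6 COLO320DM libraries, EHF had fewer reads there than any of the 8 factors apart from CDX1 and GATA6. The count ratio with empty vector was 2310, with a 95% interval from 790 to 11200, and the fitted log2 difference was 10.99 (SE 0.41, adjusted p = 5.49e-11 by edgeR). Without COLO320DM replicate 3, which held 2 of the 3 reads, it was 11.81, and without any other single library it lay between 10.47 and 11.20. With the plasmid, 1 read stood against 5811, a count ratio of 5830 whose 95% interval runs from 1050 to 230000.

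RefSeq lists separate start sites for EHF too. The window at one of them (GRCh38.p14, chr11:34632316-34632615, plus strand) is shown because, of the 9 windows available for 6 of the factors, it held the most matches, 4, to motifs named for the other families. Capitals mark AGATAA once, the forkhead letters TGTTTAC once, and the caudal letters TTTATG once on each strand, with no overlap between matches.
EHF: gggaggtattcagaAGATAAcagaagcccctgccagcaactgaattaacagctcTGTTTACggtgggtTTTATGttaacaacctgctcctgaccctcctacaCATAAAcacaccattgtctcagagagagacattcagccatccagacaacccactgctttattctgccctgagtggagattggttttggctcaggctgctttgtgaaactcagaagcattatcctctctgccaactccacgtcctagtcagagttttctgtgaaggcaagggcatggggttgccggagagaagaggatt
The matches lie at -236 for the zinc-finger, -196 for the forkhead, and -182 and -148 for the caudal letters, counted from the start site. TGTTTAC occurs in 3.42% and TTTATG in 10.6% of all windows. This window was singled out after its matches were seen.

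KLF5, a Krüppel-like zinc-finger factor of crypt cells, lies on the plus strand of chromosome 13, from 73054976 to 73077541, with 7 merged exons. COLO320DM had 11.8, 13.1 and 12 CPM with empty vector and 9.61, 12.4 and 11 CPM with the plasmid. SW480 had 372, 333 and 331 CPM with empty vector and 360, 299 and 269 CPM with the plasmid. KLF5 was thus well above the detection limit in both lines, and the line difference was nearly the same under both plasmids. The log2 difference was 4.81 (SE 0.14, adjusted p = 6.26e-12 by edgeR) with empty vector and 4.82 (SE 0.14, adjusted p = 6.64e-12 by edgeR) with the plasmid.

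SOX9, the crypt high-mobility-group factor, lies on the plus strand of chromosome 17, from 72121020 to 72126416, with 3 merged exons. COLO320DM had 7.82, 7.50 and 6.75 CPM with empty vector and 7.39, 7.50 and 8.82 CPM with the plasmid. SW480 had 146, 155 and 152 CPM with empty vector and 142, 144 and 155 CPM with the plasmid. Its libraries varied least among the factors that SW480 holds at more than 10 CPM. The log2 difference was 4.36 (SE 0.10, adjusted p = 1.36e-12 by edgeR) with empty vector and 4.22 (SE 0.10, adjusted p = 1.6e-12 by edgeR) with the plasmid. SOX9-AS1, which shares no exon base with SOX9, averaged 0.524 ± 0.0468 CPM in COLO320DM and 1.53 ± 0.455 CPM in SW480 (SD, n = 3 each, empty vector), a log2 difference of 1.54 (SE 0.32, adjusted p = 0.000795 by edgeR).

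The comparison with the HKDC1 plasmid rests on the other 6 libraries of the same fit, with the same filter, scaling and shared spread. In it 8 of 8 factors were called higher in SW480, and 37.4% of all tested genes were called higher, 33.5% lower and 70.8% in either direction. Past 4-fold, 7 of 8 were called, and 15.1% of genes. No library of one line overlapped with the other for any factor, as for 39.2% of tested genes with SW480 higher. The 5 factors that passed the filter only through SW480 had to differ here too, so that the count adds a repeat for KLF5, SOX9 and FOXA1 alone.

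**Figure D2:**
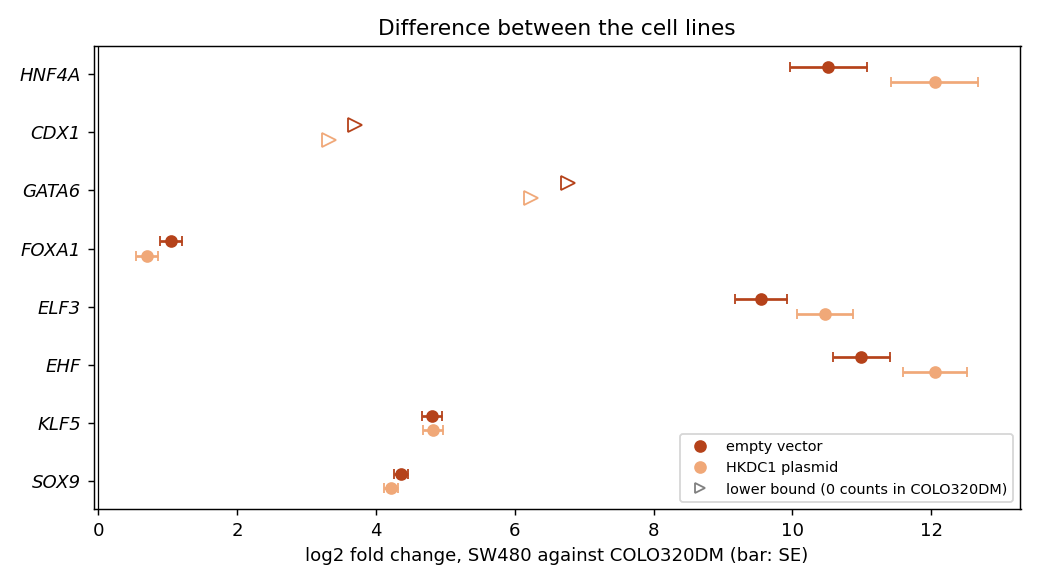
Fitted log2 fold change of SW480 against COLO320DM (horizontal) for each factor (vertical), with bars of 1 SE, for cells with empty vector and cells with the HKDC1 plasmid; triangles are lower bounds where COLO320DM had 0 counts. All values lie above 0, from FOXA1 at 1.05 and 0.70 to EHF at 10.99 and 12.06.

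Compared per kilobase of exon, KLF5 led the 8 factors in both lines. In SW480 with empty vector, KLF5 stood at 93.9 ± 6.38 and SOX9 at 38.4 ± 1.17 CPM per kilobase (SD, n = 3 each). EHF at 12.3 ± 3.36, HNF4A at 11.7 ± 4.58 and ELF3 at 11 ± 2.18 overlapped and had no order beyond their spread. FOXA1 at 1.17 ± 0.112, GATA6 at 0.646 ± 0.0695 and CDX1 at 0.170 ± 0.0722 followed without overlap. KLF5 lay at the 97.9th percentile of all tested genes by this measure and CDX1 at the 14.1th. In COLO320DM with empty vector the order was KLF5 at 3.34 ± 0.184, SOX9 at 1.87 ± 0.139 and FOXA1 at 0.568 ± 0.0244 CPM per kilobase, without overlap. The other 5 were at 0.0141 or below on average, and neighbours among them overlapped. The order of EHF depends on the length used: with the longest coding transcript in place of all exons, EHF in SW480 moved from 12.3 to 36.6 CPM per kilobase.

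Within their gene families, the most abundant gene per kilobase differed between the lines for the HNF4, FOXA, KLF and epithelial ETS genes and was the same for the CDX, GATA and SOXE genes. CDX2, the main intestinal caudal factor, averaged 1450 ± 68.1 CPM in COLO320DM and 13.3 ± 8.06 CPM in SW480 with empty vector, a log2 difference of -6.77 (SE 0.46, adjusted p = 2.14e-08 by edgeR). CDX1 and CDX2 thus differed in opposite directions. Per kilobase, CDX1 made up 0% of the family's level in COLO320DM and 1.35 to 8.40% over the 6 SW480 libraries, so CDX2 was the more abundant of the pair in both lines.

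HNF4A made up 80.4 to 89.3% of HNF4 transcript per kilobase in SW480. In COLO320DM its relative HNF4G made up 90.8 to 100% of a far smaller total, and HNF4G itself was also higher in SW480 by a log2 difference of 3.30 (SE 0.24, adjusted p = 3.45e-08 by edgeR). GATA6 was not the leading GATA gene in either line. GATA2 and GATA3, factors known mainly from blood and other tissues, were lower in SW480 by log2 differences of -1.49 (SE 0.22) and -1.11 (SE 0.23), with edgeR adjusted p of 3.91e-05 and 0.000638. GATA2 still made up 48.2 to 66.2% of GATA transcript per kilobase in SW480, and GATA6 12.7 to 26.4%.

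In the FOXA family, FOXA1 made up 80.3 to 93.3% of transcript per kilobase in COLO320DM and 8.91 to 13.2% in SW480. FOXA2 had no read in any COLO320DM empty-vector library and averaged 13.7 ± 1.18 CPM in SW480, which is at least 583-fold higher. FOXA3 averaged 0.212 ± 0.0960 against 11.2 ± 5.08 CPM, a log2 difference of 5.71 (SE 0.48, adjusted p = 1.8e-07 by edgeR). The smaller line difference of FOXA1 therefore stood beside large differences of both its paralogs.

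KLF5 made up 79.2 to 83.3% of the level of 6 KLF genes per kilobase in SW480 and 10.8 to 12.4% in COLO320DM, where KLF3 and KLF6 led. KLF3, KLF6 and KLF2 did not pass the test between lines with empty vector, at log2 -0.14 (SE 0.07), -0.29 (SE 0.12) and -0.35 (SE 0.22), with edgeR adjusted p of 0.109, 0.0515 and 0.166. With the HKDC1 plasmid KLF6 and KLF2 were called lower in SW480, at -0.32 (SE 0.12) and -0.72 (SE 0.22), with edgeR adjusted p of 0.033 and 0.0103. KLF4, a factor of differentiated epithelial cells, averaged 0.0233 ± 0.0231 against 8.17 ± 1.12 CPM and was called higher in SW480, whereas KLF7 was called lower by log2 -2.1 (SE 0.21, adjusted p = 7.96e-07 by edgeR). SOX9 made up 98.7% or more of SOXE transcript in both lines. By the length of all exons, ELF3 and EHF shared the epithelial ETS level of SW480 nearly equally, at 45.1 to 51.6% and 48.4 to 54.8%. This split depends on the length used: with the longest coding transcript (4994 bases for ELF3, 1481 for EHF), EHF stood above ELF3. Over all 19 paralogs, 12 were tested, 5 were called higher and 4 lower in SW480 with empty vector, with a median log2 difference of -0.21 against 0.04 over all genes. Of all tested genes, 37.3% were called higher and 34.3% lower, so these counts lay near the shares of all genes. With the HKDC1 plasmid 5 were called higher and 6 lower, where 37.4% of all genes were called higher and 33.5% lower.

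**Figure D3:**
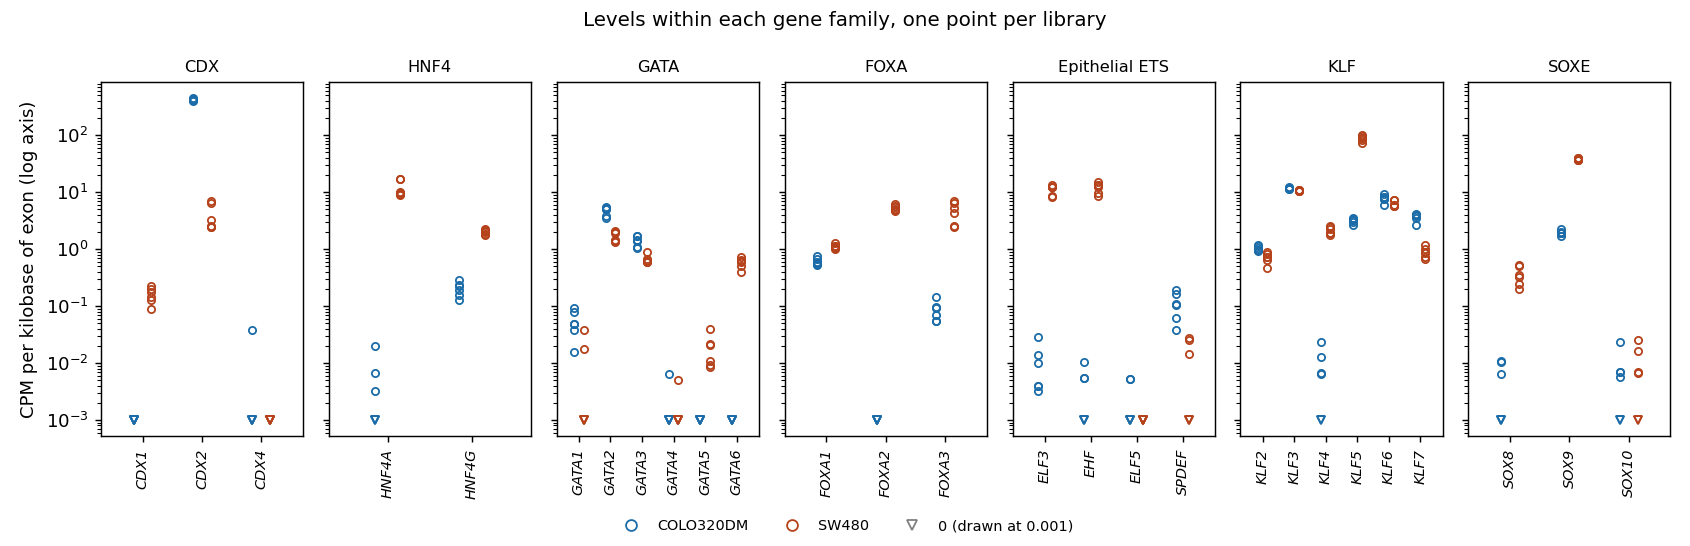
Level in CPM per kilobase of exon on a log axis (vertical) of each factor and its paralogs (horizontal, 1 panel per family), with 1 open circle per library, 6 for each line with both plasmids pooled; triangles mark 0 and are drawn at 0.001. CDX2, GATA2, GATA3 and KLF7 lie higher in COLO320DM, while HNF4A, FOXA2, FOXA3, ELF3, EHF, KLF4, KLF5 and SOX9 lie higher in SW480.

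Other gut lineage factors were split. Of 20, 15 were tested, and 10 were called higher and 3 lower in SW480 with empty vector, with a median log2 difference of 3.30. Over all tested genes 37.3% were called higher and 34.3% lower, with a median of 0.04. The lower ones included CDX2 and the foregut and pancreas factor PDX1 (log2 -4.38, SE 0.18). The vitamin D receptor gene VDR and PRDM1, a zinc-finger repressor of fetal intestine, were higher by log2 3.14 (SE 0.20) and 7.17 (SE 0.24). SOX2, a factor of foregut and stomach, was also higher in SW480, at 5.87 ± 1.93 against 0.0235 ± 0.000347 CPM. ASCL2, an intestinal stem cell factor, was higher by log2 1.70 (SE 0.16). ONECUT2 did not pass the test, at log2 -0.27 (SE 0.19, edgeR adjusted p = 0.226).

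Of 14 other epithelial factors, 10 were tested, 6 were called higher and 1 lower, with a median log2 difference of 1.77. The shares of all tested genes were 37.3% higher and 34.3% lower, here and for the next list. The forkhead gene FOXQ1 averaged 0.0157 ± 0.0272 CPM in COLO320DM and 63.3 ± 9.38 CPM in SW480. TFAP2A was higher by log2 3.83 (SE 0.27) and OVOL2 by 0.60 (SE 0.10). GRHL1 (log2 -0.27, SE 0.14, edgeR adjusted p = 0.0996) and TFAP2C (log2 0.59, SE 0.26, edgeR adjusted p = 0.0532) did not pass the test. Among 13 secretory and endocrine lineage factors, 6 were tested and 5 were called higher, with a median log2 difference of 2.94. ATOH1, the goblet and Paneth lineage switch, was called lower, at 3.01 ± 0.611 against 0.0233 ± 0.0221 CPM. MNX1, POU2F3 and PAX6 led the higher ones, with log2 differences of 5.51 (SE 0.38), 4.65 (SE 0.99) and 3.50 (SE 0.26), and NEUROD1 and GFI1 had 2.38 (SE 0.55) and 1.19 (SE 0.12).

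Factors of epithelial-mesenchymal transition, which repress epithelial genes, went in both directions. Of 9, 5 were tested, 3 were called lower in SW480, as were 34.3% of all genes, and 1 higher, with a median log2 difference of -1.86. ZEB2 averaged 67.3 ± 4.43 CPM in COLO320DM and 0.00733 ± 0.0127 CPM in SW480, PRRX1 83.6 ± 7.98 against 3.12 ± 0.659 CPM, and ZEB1 44.9 ± 3.14 against 12.3 ± 0.956 CPM. SNAI2 went the other way, at 0.00794 ± 0.0138 against 11.4 ± 2.76 CPM. SNAI1 did not pass the test, at log2 -0.16 (SE 0.22, edgeR adjusted p = 0.514).

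Genes that mark epithelial cells were counted beside the factors, and nothing is drawn from this about control by them. Of 24 pan-epithelial genes, 23 were tested, and 20 were called higher and 2 lower in SW480, with a median log2 difference of 6.68. Beside each list in this paragraph, 37.3% of all tested genes were called higher and 34.3% lower, with a median of 0.04. The largest log2 differences were those of KRT19 at 12.36 (SE 0.61), the protease gene ST14 at 11.48 (SE 0.24) and AP1M2, an epithelial sorting adaptor, at 11.32 (SE 0.32). The smallest were CDS1 at -1.22 (SE 0.15), PRSS8 at -0.94 (SE 0.65, edgeR adjusted p = 0.209) and the junction gene CGN at -0.52 (SE 0.12). Enterocyte and colonocyte genes were less uniform: of 32, 17 were tested, 10 were called higher and 3 lower, with a median log2 difference of 1.82. TFF3, a goblet cell peptide gene, PHGR1 and A1CF, a cofactor of RNA editing, stood highest. TFF3 and PHGR1 had no read in COLO320DM with empty vector and were at least 427-fold and 63.4-fold higher, and A1CF was higher by log2 7.94 (SE 0.32). FABP2, the intestinal fatty acid binding protein, went the other way, at 2.1 ± 0.323 CPM in COLO320DM and 0 in SW480, which is at least 84.5-fold lower. The carbonic anhydrase gene CA2 was lower by log2 -1.18 (SE 0.16), and GUCY2C did not pass the test at -1.57 (SE 0.72, edgeR adjusted p = 0.067). Of 9 hepatocyte genes, 5 were tested, 4 were called higher and 1 lower, with a median log2 difference of 4.60 with groups at 0 at their bound, led by SERPINA1 at 48.7 ± 26.9 against 0.00785 ± 0.0136 CPM. ALB and AMBP were higher by log2 5.82 (SE 0.64) and 4.60 (SE 1.07), and APOH, with no read in COLO320DM, was at least 18-fold higher. TF was lower by log2 -1.96 (SE 0.43). In every list counted here and above, genes near 0 in a line passed the filter on low counts only through the other line. Such genes had to differ, so the counts and medians of the lists carry no test.

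**Figure D4:**
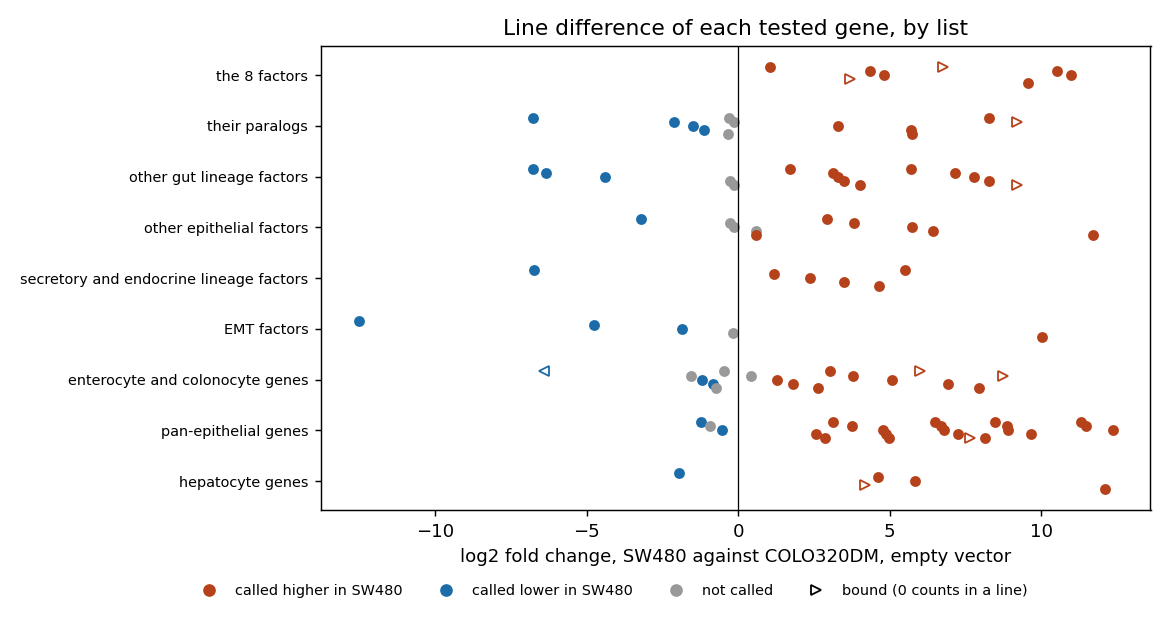
Fitted log2 fold change of SW480 against COLO320DM with empty vector (horizontal) for each tested gene of 9 lists (rows), coloured by whether edgeR called it higher, lower or neither; open triangles are bounds where a line had 0 counts. All 8 factors lie above 0, their paralogs lie on both sides, and pan-epithelial genes lie mostly above 0 with 2 called lower.

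The HKDC1 plasmid moved none of the 8 factors past the threshold. In COLO320DM 0 of 8 were called, against 0.00844% of all tested genes, which is 2 genes, and in SW480 0 of 8 against 0.0127%, which is 3 genes. The edgeR adjusted p was 1 for every factor in both lines, and 0 of 8 reached an unadjusted p of 0.05. Neither DESeq2 nor limma-voom called any of the 8. In COLO320DM the log2 differences of plasmid against empty vector were 0.10 (SE 0.10) for SOX9, -0.16 (SE 0.13) for KLF5 and 0.19 (SE 0.16) for FOXA1. CDX1, GATA6 and EHF were at or under 3 reads per group there and give no fold. HNF4A had 7 against 2 reads and ELF3 13 against 6, which is too few for a comparison.

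In SW480 the differences were 0.07 (SE 0.29) for HNF4A, -0.34 (SE 0.24) for GATA6, -0.04 (SE 0.09) for SOX9, -0.16 (SE 0.12) for KLF5, 0.04 (SE 0.21) for ELF3, -0.06 (SE 0.20) for EHF and -0.16 (SE 0.16) for FOXA1. CDX1 had 37 reads with empty vector and 30 with the plasmid. KLF5 was lower with the plasmid in 3 of 3 replicate pairs in each line, by the same log2 value of -0.16. In SW480, GATA6 and FOXA1 were also lower in 3 of 3 pairs, and HNF4A was higher in 3 of 3. These pairs join libraries of the same replicate number, which no label pairs. The share of all genes with 3 of 3 was not counted, so these counts carry no test. All exact two-sided permutation p-values were 0.2 or larger, where 0.1 is the smallest possible. With the replicate number as a block, 0 of 8 were called in either line, against 0.076% of genes in COLO320DM and 0.76% in SW480, and none for the difference between lines, against 0.0422%. The KLF5 value with the block in SW480 was -0.17 (SE 0.06) with an edgeR adjusted p of 0.208. With only replicates 2 and 3, a choice made after the data were seen, KLF5 in SW480 was called, at log2 -0.24 and an edgeR adjusted p of 0.0221. It was 1 of 720 genes called there among 23759 tested, of which 165 were higher and the rest lower with the plasmid. A missed threshold does not show that levels were equal. The difference between lines in the plasmid effect was called for 0 of 8, against 0.00844% of all genes, with an edgeR adjusted p of 1 for each; no factor reached an unadjusted p of 0.05.

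Among SW480 libraries, replicate 1 stood apart in both plasmid groups, and the factors differed there in opposite directions. HNF4A in replicate 1 was 1.88 times the mean of replicates 2 and 3 with empty vector and 1.76 times with the plasmid, from 4779 against 2467 and 2946 reads and from 4442 against 2834 and 2581 reads. ELF3 stood at 0.691 and 0.634 times, and EHF at 0.599 and 0.749 times. HNF4A was thus highest, and ELF3 and EHF lowest, in replicate 1 of both groups. GATA6 at 1.18 and 1.36 times and KLF5 at 1.12 and 1.27 times were also highest in replicate 1, by less. SOX9 at 0.951 and 0.946 times was lowest by a small margin, and FOXA1 at 0.927 and 1.09 times had no shared direction.

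To be highest or lowest in replicate 1 was common among genes, while a shift as large as that of HNF4A was less common. Of genes with at least 1 CPM in both SW480 groups, 36.9% were highest and 33.8% lowest in replicate 1 of both groups. A replicate 1 value at least 1.5-fold above the mean of the other replicates in both groups, as for HNF4A, was seen in 3.71% of them, and one as far below in 7.70%. In COLO320DM those shares were 0.573% and 1.34%. ELF3 and EHF in SW480 did not lie 1.5-fold below in both groups, so the 7.70% does not describe them. CDX2 in SW480 replicate 1 was at 2.62 and 2.42 times, CDH1 at 2.29 and 2.60 times, KRT19 at 2.22 and 1.95 times and FOXA3 at 0.381 and 0.512 times the mean of the other replicates. These 4 genes were picked for mention after their values were seen. The labels give no date or batch for replicate 1. With replicates 2 and 3 only, all 8 factors were also called higher in SW480. So were 9741 of 23759 tested genes with empty vector and 9712 with the plasmid. CDX1, HNF4A, GATA6, ELF3 and EHF, near 0 in COLO320DM, had to differ there too, so the count adds nothing for them.

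**Figure D5:**
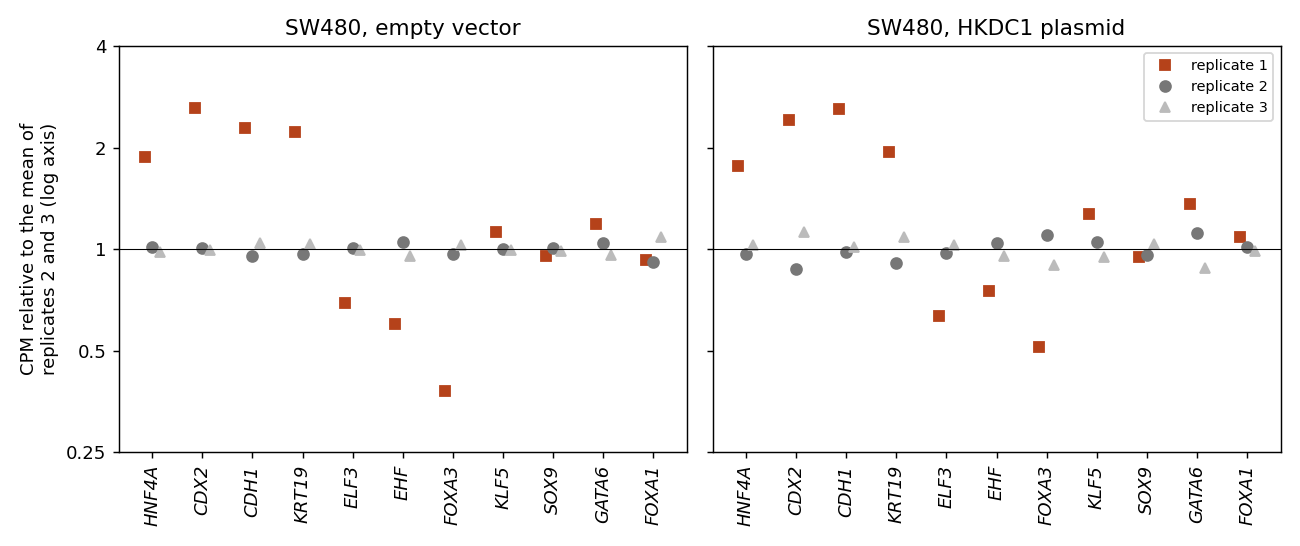
Level in each SW480 library relative to the mean of replicates 2 and 3 of its group, on a log axis (vertical), for 7 of the factors and 4 other genes (horizontal); the left panel is empty vector and the right panel the HKDC1 plasmid. Replicate 1 (squares) lies at 1.88 and 1.76 for HNF4A, and below 1 for ELF3, EHF and FOXA3 in both panels.

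Over the 6 SW480 libraries, HNF4A and ELF3 had a Pearson r of -0.96, HNF4A and EHF -0.96, and ELF3 and EHF 0.90, on log2 CPM. These values describe 6 libraries that share the replicate 1 split and carry no test. By the same measure, with each line centred on its mean, the genes most like each factor were YTHDF2 (1.0) and AK4 (0.999) for HNF4A, GARS1-DT and UGT1A6 (both 0.999) for ELF3, and CDH12 (0.999) and HPS5 (0.997) for EHF, among 11920 genes over 6 SW480 libraries. For CDX1 they were LRRC28 (0.994) and PRPSAP2 (0.993), for GATA6 MT-TL1 (0.987) and MTMR9 (0.983), and for FOXA1 TM2D3 (0.987) and TAF1A (0.948). The best of 11920 genes over 6 libraries has a high r through selection alone. CDX1 had only 6 to 18 reads per SW480 library, and the offset added before the log exceeded its level in each. Its values therefore show no likeness beyond counting error. Over all 12 libraries and 10502 genes, FEM1C (0.947) and BLTP3B (0.922) were most like KLF5, and TUBB2A (0.768) and SLC25A21 (0.765) most like SOX9.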

How the data were processed

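Poly-A RNA-seq libraries of 3 replicates in each of 4 groups were analysed from the table of read counts per gene that the authors deposited. Reads were aligned to GRCh38 with HISAT2 2.1.0, per the submitters' processing notes, which also name limma; the counting program and its strand setting are not given in the sources used here. The exon length in bases that the deposited table gives per gene (unit other) served for levels per kilobase. Gene symbols were matched for 60295 of 60623 identifiers, and members were compared with GENCODE 29.

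Genes were kept by edgeR's filterByExpr (minimum count 10, minimum total 15), scaled by TMM and fitted as 4 group means over 12 libraries with edgeR 4.0.16 in R 4.3.3 (quasi-likelihood test, Benjamini-Hochberg over 23684 genes, called at adjusted p under 0.05, and also at 4-fold between lines). A group at 0 was set to a floor of 3 reads over the group, and count ratios have exact 95% binomial intervals for counting error. DESeq2 1.42.0, limma 3.58.1, other scalings and filters, a replicate block and left-out replicates were alternatives.

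Members and gene lists were chosen with earlier results of these data known. Named were all 8 factors; paralogs, antisense partners, gut, epithelial and EMT factors with at least 1 CPM in every library of a line; the 3 largest and 3 smallest line differences of other lists; genes overlapping a factor's exons; and the 2 genes most like each factor. Marker lists are given mainly as sums. Some genes that the rule names are not reported here. HKDC1, RNPEP and the replicate 1 values of CDX2, CDH1, KRT19 and FOXA3 were added after values were seen. Deviations of same-numbered libraries correlated within each line (r 0.40, 0.13 and 0.12 in COLO320DM; 0.72, 0.44 and 0.31 in SW480), which met the rule for fitting the number as a pair (every r over 0.1). Replicates 2 and 3 correlated as much across numbers (0.15 and 0.16; 0.37 and 0.47), so the data set replicate 1 apart but do not tell numbers 2 and 3 from each other, and no label pairs them; across lines r was 0.02 to 0.15. No replicate pair agreed within sampling noise (chi-square per degree of freedom 3.18 to 82.9).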

Additional observations from a re-analysis of the deposited data

How the results depend on the processing

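All 8 factors stayed called higher in SW480 under each alternative in which they were tested, for both plasmids. CDX1, HNF4A, GATA6, ELF3 and EHF, near 0 in COLO320DM, had to differ, so this bears on KLF5, SOX9 and FOXA1 alone. With empty vector, 15381 to 18842 genes were called per alternative, 48.4 to 53.0% of them higher. Testing only the groups compared left CDX1 untested in both line comparisons. With the replicate block, the genes called for the plasmid rose to 18 in COLO320DM, 180 in SW480 and 10 for the difference between lines, and the block changed no call of a factor. With replicates 2 and 3 only, those counts were 8, 720 and 75 of 23759 tested genes. In that setting 1 factor, KLF5, was among the 720 called in SW480 (log2 -0.24). Leaving out single replicates gave 2 genes each time in COLO320DM and 3 to 5 in SW480, the 5 without replicate 1 of the empty vector. The log2 plasmid effects in SW480 that changed sign, none called, ranged over left-out replicates from -0.25 to 0.42 for HNF4A, -0.14 to 0.22 for ELF3 and -0.28 to 0.09 for EHF. The KLF5 difference between lines, 0.00, ranged from -0.13 to 0.08 over left-out replicates and was -0.01 with DESeq2, -0.01 with RLE size factors, 0.00 with the block and -0.15 with replicates 2 and 3 only; the cause was not tested. With the longest coding transcript as length, SW480 levels per kilobase were 36.6 for EHF, 15.8 for ELF3 and 1.81 for FOXA1. Few reads in COLO320DM limit the size of the HNF4A, ELF3, EHF, CDX1 and GATA6 differences.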
